A study of Mus musculus with 6 samples.

Results

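MicroRNAs are numbered roughly in the order in which they were registered, so a name above miR-1000 marks a late entry, found mostly by deep sequencing. The microRNAs described here were the rows of a mouse liver read-count table whose number is 1000 or more and which held at least 10 reads summed over 6 libraries. 199 of the 1907 rows met both conditions. Of the 1064 rows numbered 1000 or more, 806 held no read and 59 held 1 to 9 reads. They were chosen by their read total, so their level is given as a description only. The rule on numbers and reads did not use the diet of the mice. However, this set and miR-5099 within it were chosen with earlier results of these data known. Near the limit, miR-3098-5p (10 reads, all in regular library 1), miR-6979-3p (10 reads, all in regular library 3) and miR-6989-3p (10 reads, all in soy library 2) lay just inside, whereas miR-1941-5p, miR-3073a-5p and miR-3109-3p, with 9 reads each, lay just outside.

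Liver small RNA came from male mice with a mixed strain background, aged 12 weeks. 3 mice received a chow of 75% granulated regular food with 25% soy bean powder over 4 weeks, and 3 mice received the granulated regular food alone. Each library stood for 1 mouse. The question was whether the soy-enriched chow altered liver microRNAs. Libraries held 10032094 to 12762916 microRNA reads in soy-fed mice and 5727546 to 10325712 in regular-fed mice, and 3 reads, the limit that a count of 0 allows, stood for 0.235 to 0.299 CPM (reads scaled to a common library size, here the raw total) in soy libraries and for 0.291 to 0.524 CPM in regular libraries. The liver markers miR-122-5p and miR-192-5p took 1.61% to 2.83% and 17.6% to 22.7% of the reads. Leukocyte markers (6 of 6 with reads) summed to 0.271% to 0.348% of the reads in soy against 0.214% to 0.229% in regular libraries, and endothelial markers (2 of 2) to 1.999% to 2.07% against 1.58% to 1.74%. These were the only marker lists whose ranges were apart. Hepatocyte markers (6 of 7 with reads) summed to 28.4% to 32.5% in soy against 29.5% to 35.3% in regular libraries. Erythroid, mesenchymal, muscle, pancreas and neural markers also overlapped. Most leukocyte marker reads were of miR-146a-5p and miR-142a-5p, and most endothelial marker reads of miR-126a-5p. The markers were not compared singly. The part of the leukocyte and endothelial shifts in the values below was not tested. In bulk liver, more cells of a type and more RNA per cell cannot be told apart.

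A classical microRNA is cut from a long transcript by Drosha, which acts with the RNA-binding protein Dgcr8, and then by Dicer, and its bases 2 to 8, the seed, pair with target messenger RNAs. Other hairpins enter this pathway by a side door. Mirtrons are short introns whose ends are cut by the spliceosome instead of Drosha, and tailed mirtrons share only 1 end with their intron. Some small nucleolar and Cajal body RNAs (snoRNAs and scaRNAs), which guide the modification of other RNAs, are also trimmed by Dicer into fragments of microRNA size. Late entries include many of these atypical hairpins.

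RefSeq (build GRCm38.p6) gave a mature sequence for 169 of the 199 microRNAs. Those of the most abundant microRNAs that had a sequence are shown first, 5′ to 3′ with the seed in capitals. Both miR-1948 arms, with 30998 (3p) and 11954 (5p) reads, had no sequence here. They are left out of the sequence and intron features below.
miR-1839-5p: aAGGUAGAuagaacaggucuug
miR-1843a-5p: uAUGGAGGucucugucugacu
miR-1843b-5p: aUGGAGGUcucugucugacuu
miR-1843b-3p: cCGAUCGUuccccuccauac
miR-1247-5p: aCCCGUCCcguucguccccgga
miR-1981-3p: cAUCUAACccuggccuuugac
miR-1198-5p: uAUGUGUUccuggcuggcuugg
miR-1249-3p: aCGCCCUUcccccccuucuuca
No seed was shared between any of the 169. Seeds of 5 were shared with a microRNA numbered under 1000 that had at least 10 reads: miR-5129-3p with miR-455-5p (AUGUGCC), miR-7670-3p with miR-204-5p and miR-211-5p (UCCCUUU), miR-6240 with miR-330-3p (CAAAGCA), miR-3473d with miR-674-5p (CACUGAG) and miR-6985-3p with miR-673-5p (UCACAGC).

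Sequences of 3p arms that lay at the end of an annotated intron are shown next, with the last bases in capitals, since an intron ends in AG.
miR-6978-3p: acggcuucacucucacccugcAG
miR-7226-3p: ugacacagccauucucugagcAG
miR-3082-3p: cacauggcacucaacucugcAG
miR-7083-3p: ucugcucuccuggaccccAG
miR-3076-3p: cgcacucuggucuucccuugcAG
miR-6922-3p: uguucugcucacccuucucacAG
miR-7116-3p: uuuuuuuccuuugccuucucAG

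The last set shows pairs that shared 20 bases, with the shared run in capitals, since the reads of such names may not be separable. The first pair matches on the same strand, and the next pairs are reverse complements that lie on opposite strands of 1 locus.
miR-1843a-5p: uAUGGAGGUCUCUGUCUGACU
miR-1843b-5p: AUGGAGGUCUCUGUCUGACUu
miR-3074-5p: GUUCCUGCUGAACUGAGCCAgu
miR-24-3p: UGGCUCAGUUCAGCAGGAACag
miR-3073b-5p: AUGGUCACAGUGGACAUCAAcc
miR-3073a-3p: UUGAUGUCCACUGUGACCAUag

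The 199 microRNAs together took about 0.2% of the liver's microRNA reads. They held 24839, 22689 and 20822 reads in soy libraries and 23109, 23939 and 14385 in regular libraries. As a share of all microRNA reads this was 0.195%, 0.226% and 0.205% in soy-fed mice and 0.226%, 0.232% and 0.251% in regular-fed mice, with means of 0.208% ± 0.0161 and 0.236% ± 0.0133 (SD, n = 3 each). Soy library 2 and regular library 1 touched, with 95% exact binomial intervals of 0.223% to 0.229% in both, so the diets were not separated by this share. These intervals cover counting error only. The number of these microRNAs seen with at least 1 read was 97, 110 and 109 in soy libraries and 110, 102 and 91 in regular libraries.

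Few of them carried the reads. Of 129783 reads in all, the 5 most abundant microRNAs held 69.0% and the 12 most abundant held 86.3%. The 34 microRNAs numbered below 3000 held 89.6%, while the 107 numbered from 6000 to below 8000 held 4.59%, with a median of 28 reads each.

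miR-1948-3p was the most abundant, at rank 62 of the whole table by mean CPM, with 6312, 4682 and 4266 reads in soy libraries and 5479, 6086 and 4173 in regular libraries. Its partner arm miR-1948-5p had 1894, 2271 and 1823 reads in soy and 1689, 3048 and 1229 in regular libraries. The 3p arm took 71.4% ± 4.94 of the hairpin's reads in soy-fed mice and 73.4% ± 5.91 in regular-fed mice (SD, n = 3 each; exact permutation p = 0.9, two-sided).

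Reads from scaRNA genes made up the largest of the position classes. 8 microRNAs, the arms of miR-1839, miR-1843a, miR-1843b and miR-6516, lay in genes that GENCODE M21 (GRCm38) annotates as scaRNA, and held 43.2% of the 129783 reads. miR-1839-5p (chr7:81529919-81529940, plus strand) had 3176, 3153 and 3736 reads in soy and 2735, 3116 and 1422 in regular libraries. miR-1843a lay in Scarna3b (chr12:80391613-80391677, minus strand) and miR-1843b in Scarna3a (chr1:159340358-159340423, plus strand). The 2 scaRNA3 copies are near-identical in their 5p arms, as the sequences above show. The whole sequence of miR-1843b-5p also occurs in Scarna3b, so its reads cannot be assigned to 1 copy. In addition, miR-1839-5p and both arms of miR-1843a and miR-1843b occur whole in scaRNA transcripts. Reads of these transcripts cannot be told from reads of the microRNAs.

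As a share of the reads of the 199 microRNAs, the scaRNA class took 44.4%, 44.1% and 50.5% in soy-fed mice, above the 41.1%, 41.0% and 36.3% in regular-fed mice, without overlap. On the CPM scale, however, it reached 897.7, 996.5 and 1052 in soy-fed and 927.3, 980.5 and 834.5 in regular-fed mice, and these ranges overlapped. The class without a usable position, mostly the miR-1948 arms, averaged 675.7 ± 45.6 CPM in soy-fed mice and 854.4 ± 113.1 CPM in regular-fed mice (SD, n = 3 each).

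miR-1843b-5p stood at 149.5, 136.6 and 146.8 CPM in soy libraries and at 102.7, 127.4 and 118.7 CPM in regular libraries, so every soy library was above every regular library. miR-1843a-5p stood at 242.9, 254.8 and 253.3 CPM in soy libraries and at 193.8, 258.5 and 293.0 CPM in regular libraries, and overlapped between the diets. Since 20 bases are common to both, the summed level is also given: it was 394.6 ± 4.80 CPM in soy-fed and 364.8 ± 60.4 CPM in regular-fed mice (SD, n = 3 each), with overlapping ranges.

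The remaining abundant microRNAs lay in longer genes. miR-1247-5p sits in an exon of Dio3os, the long non-coding RNA beside the deiodinase gene Dio3, and had 867, 741 and 260 reads in soy and 1155, 734 and 401 in regular libraries. miR-1981-3p had 543, 575 and 478 reads in soy and 531, 458 and 295 in regular libraries. Its hairpin fills a whole intron of 82 bases in Marc2, a mitochondrial reductase gene, at both ends, as a mirtron does. miR-1198-5p and miR-1249-3p had 297 to 561 reads in every library under both diets.

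**Figure D1:**
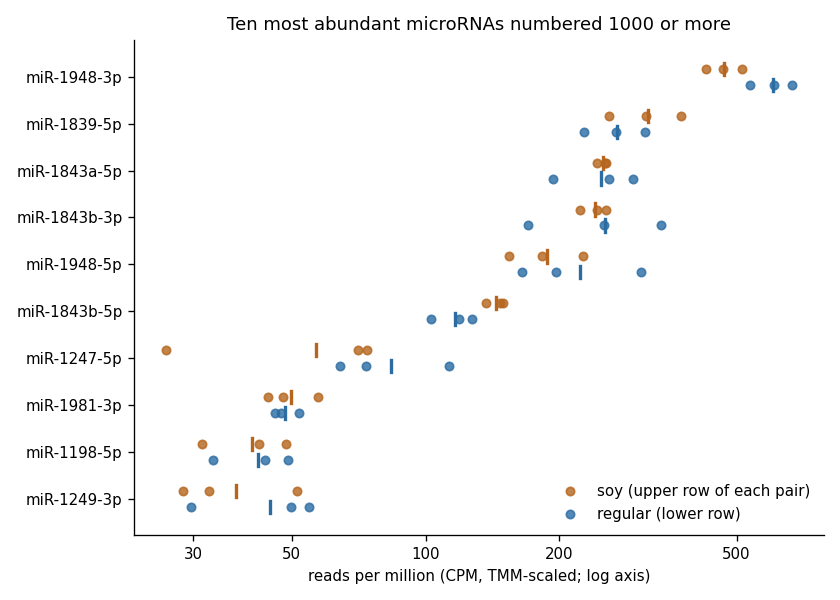
Level of the 10 most abundant microRNAs numbered 1000 or more, in CPM on a log axis. Points are mice, vertical ticks are means of 3 mice, with soy above regular in each pair. The diets overlapped for 8 of the 10, and were apart for miR-1948-3p (lower in soy) and miR-1843b-5p (higher in soy).

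Many of these microRNAs ended where an intron ends, a feature that the choice by reads had not used. Of the 87 3p arms among the 169 with a sequence, 55 (63.2%) ended within 2 bases of the end of an annotated intron, against 2 of 183 (1.09%) 3p arms numbered under 1000 with at least 10 reads. Of the 55, 43 ended on the very last base of the intron. By sequence, 39 of the 55 closed with CAG and 4 with UAG. An AG end was found in 46 of the 87 (52.9%) against 13 of 183 (7.10%). Of the 3p arms numbered 1000 or more that had under 10 reads, 142 of 277 (51.3%) also lay at an intron end, so this position was also frequent in late-numbered entries without enough reads.

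Full mirtrons were few among them, though more frequent than in the other sets. In 8 of the 169 (4.73%) both ends of the hairpin lay at intron ends, which includes both miR-1981 arms. This stood beside 2 of 364 (0.549%) numbered under 1000 with at least 10 reads, and 20 of 760 (2.63%) late-numbered entries with under 10 reads. In 69 more of the 169, the hairpin shared only its 3′ end with the intron, beside 2 of the 364 and 280 of the 760.

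Host genes were of many kinds. Those given here, which included a plasma protein and genes of liver metabolism, were picked for mention after the hosts were seen, and no share was computed. miR-6978-3p, with 146, 72 and 76 reads in soy and 87, 120 and 104 in regular libraries, ends an intron of 94 bases in C3, the complement component made by hepatocytes. miR-7226-3p ends an intron in Ptprf, a receptor tyrosine phosphatase, and had 119, 49 and 0 reads in soy and 48, 131 and 55 in regular libraries. miR-3082-3p ends an intron in Stub1, a ubiquitin ligase, and had 73, 44 and 26 reads in soy and 74, 27 and 35 in regular libraries. Fewer reads came from intron ends in Tkt (transketolase), Slc37a4 (the glucose-6-phosphate transporter), Srebf1 (a regulator of lipid synthesis) and Acly (ATP citrate lyase): miR-3076-3p, miR-7085-3p, miR-6922-3p and miR-7116-3p had 121, 68, 46 and 39 reads over the 6 libraries. miR-6922-3p and miR-7116-3p had reads in only 2 libraries each. The sequence of miR-6922-3p also occurs in an annotated Srebf1 transcript.

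The 3p arms at intron ends held 6735 reads in all, of which miR-1981-3p alone held 2880. Only 10 of their 5p partners had 10 reads or more, with 1243 reads together. By class, the 86 microRNAs at intron ends (either arm) summed to 135.8 ± 17.0 CPM in soy-fed and 159.3 ± 19.2 CPM in regular-fed mice (SD, n = 3 each). These ranges overlapped.

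**Figure D2:**
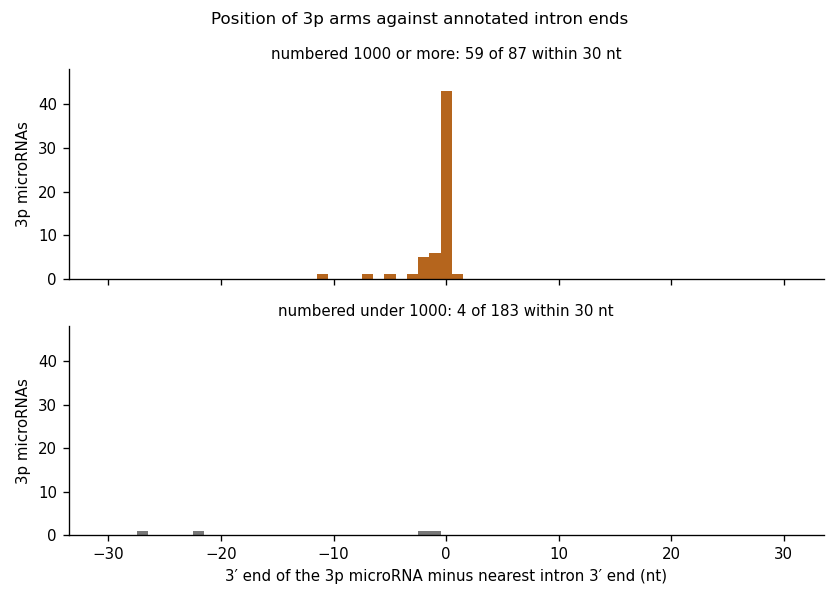
Distance in bases from the 3′ end of each 3p microRNA to the nearest annotated intron 3′ end, for microRNAs numbered 1000 or more (above) and those numbered under 1000 with at least 10 reads (below). 59 of 87 and 4 of 183 fell in the window of 30 bases drawn, and 43 late-numbered arms stood at 0.

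Base composition also differed. Median GC content was 54.5% in the 169 late-numbered microRNAs and 45.5% in 364 numbered under 1000, and 13 against 3 had 70% GC or more. The late-numbered entries with under 10 reads were alike in this, with a median of 56.5% GC over 760 sequences, of which 52 had 70% or more, and with an AG end in 128 of 277 3p arms (46.2%). At the top stood miR-6538 with 94.7% GC (28 reads), miR-7648-3p with 85.7% (16 reads) and miR-5122 with 85.0% (208 reads). The whole mature sequence also occurred in an annotated transcript that is not a microRNA for 54 of 169 (32.0%), against 90 of 364 (24.7%). Among these were miR-1306-5p and miR-3618-5p in Dgcr8, the partner of Drosha, and miR-8114 in Glul, glutamine synthetase. The abundant miR-1839-5p and the arms of miR-1843a and miR-1843b, in scaRNA transcripts, were also among them. Reads of such a transcript cannot be told from reads of the microRNA.

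Most of the 199 were too sparse to follow from mouse to mouse. Their median total was 39 reads, against 451 for the 420 microRNAs numbered under 1000 with at least 10 reads. 43 of 199 (21.6%) were seen in all 6 libraries, and 127 in 3 libraries or fewer. 55 (27.6%) had every read in a single library, against 10.5% of those numbered under 1000. At equal totals the difference shrank or turned. At 10 to 19 reads, 45 of 58 late-numbered microRNAs (77.6%) and 31 of 42 numbered under 1000 (73.8%) were found in 1 library alone. At 20 to 49 reads it was 10 of 64 (15.6%) and 13 of 55 (23.6%). Single-library microRNAs were spread over all libraries, with 12, 8 and 10 in soy and 9, 11 and 5 in regular libraries.

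Most single values at such low totals were 0. Among the 122 late-numbered microRNAs with 10 to 49 reads, 504 of 732 values were 0, 23 were 1 to 3 reads, 45 were 4 to 9 reads and 160 were 10 reads or more. The 97 microRNAs numbered under 1000 with as many reads had 384 of 582 values at 0, 19 at 1 to 3, 63 at 4 to 9 and 116 at 10 or more. A microRNA seen in 1 library had to hold its 10 reads there by the choice on reads. Zeros beside larger counts were also met at higher totals. Over 135 reads in all, miR-7688-5p had 0, 17 and 24 reads in soy and 74, 0 and 20 in regular libraries. miR-7042-5p had 18, 0 and 0 reads in soy and 14, 45 and 0 in regular libraries, and miR-7084-3p had 19, 0 and 0 against 52, 6 and 0. miR-6964-3p had 16, 0 and 16 reads in soy and 36, 0 and 0 in regular libraries. In each of these, values within a diet spread wider than the diets' means differed.

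**Figure D3:**
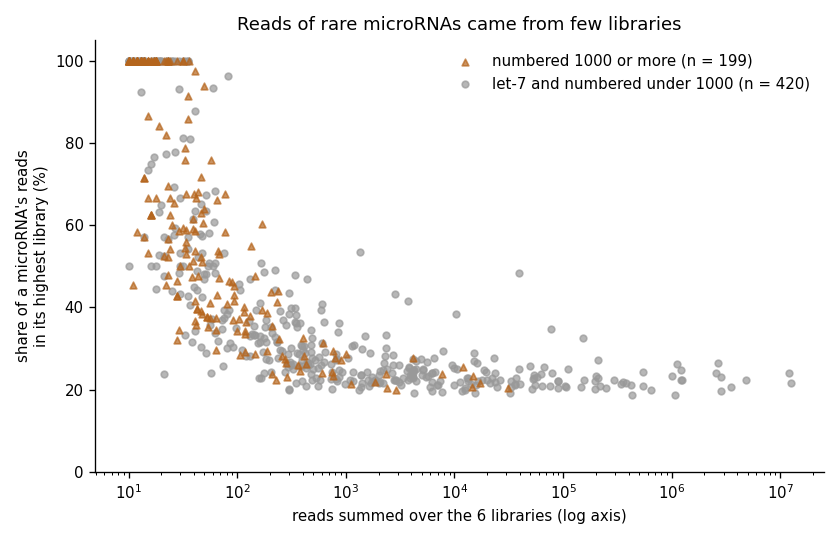
Share of each microRNA's reads that fell in its highest library (percent), against its reads summed over 6 libraries (log axis), for 199 microRNAs numbered 1000 or more (triangles) and 420 numbered under 1000 (circles). In both sets the share was highest at low totals, with many microRNAs at 100% below 50 reads.

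The diets were compared by edgeR's quasi-likelihood test, fitted on 437 microRNAs that had 4 reads or more in 3 or more libraries. 95 of the 199 late-numbered microRNAs entered it and 104 did not. None of the 95 passed an adjusted p of 0.05 over all 437, and the share of the whole table that passed was 0%. DESeq2 and limma-voom also called 0 of the 95, although DESeq2 called 0.458% of the whole table. At an unadjusted p under 0.05, edgeR gave 5 of the 95, 2 higher and 3 lower in soy, beside 5.03% of all microRNAs tested (2.29% higher and 2.75% lower). Among those higher was miR-6952-5p, which entered the test through soy libraries alone and so had to differ. DESeq2 gave 6, beside 5.49% of all tested, and limma-voom gave 8, beside 6.18%. 45 of the 95 had a positive and 50 a negative log2 fold change (soy over regular), with a median of -0.04, against -0.02 over the whole table.

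Precision was low for most. The median standard error of the log2 fold change was 1.38 for the 95 and 0.44 for the 342 other microRNAs, and the median size of the fold change was 0.71 and 0.31 on the log2 scale. Only 20 of the 95 had a mean of at least 10 CPM, and their log2 fold changes lay between -0.95 (miR-3057-5p) and 0.31 (miR-1843b-5p).

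**Figure D4:**
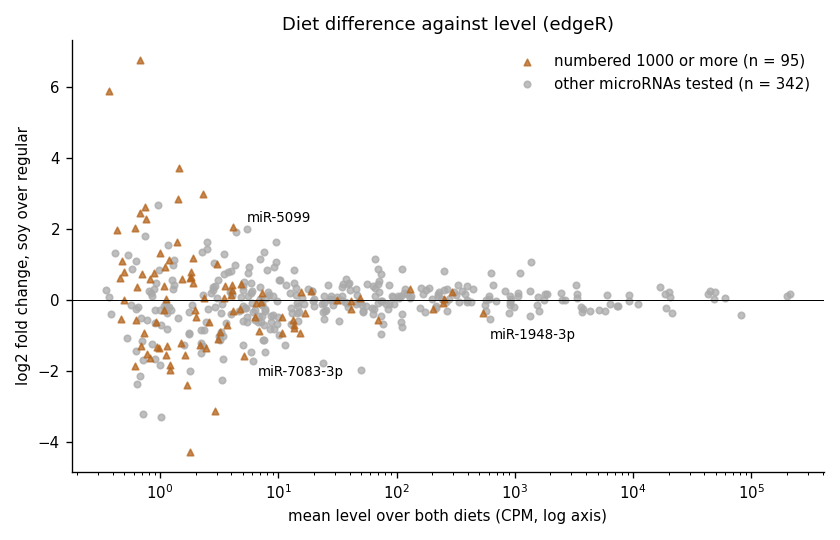
Log2 fold change (soy over regular, edgeR) against mean CPM over both diets (log axis), for 95 late-numbered microRNAs (triangles) and 342 others (circles). The spread widened toward low levels, and miR-5099, miR-7083-3p and miR-1948-3p are labelled. The topmost points are microRNAs with 0 reads in every regular library, whose fitted value is no measured fold.

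In 13 of the 95 (13.7%) the CPM ranges of the diets did not overlap, beside 12.8% of all microRNAs tested: 6 were higher in soy, beside 7.32%, and 7 were lower, beside 5.49%. These shares are near those of the whole table. 2 of the 6, miR-6952-5p and miR-1199-5p, entered the test through soy libraries alone and so had to differ.

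Among the abundant ones, miR-1948-3p averaged 468.8 ± 43.1 CPM in soy-fed mice and 603.8 ± 66.2 CPM in regular-fed mice (SD, n = 3 each), lower in each of the 3 soy mice than in any regular mouse. Its log2 fold change was -0.36 ± 0.18 (SE) and did not pass (edgeR adjusted p = 0.941). miR-1843b-5p differed by 0.31 ± 0.20 (SE) on the log2 scale (edgeR adjusted p = 0.982), with the limit on its reads given above.

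miR-5099 had the smallest p of the late-numbered set, and had been listed for mention with earlier results of these data known. It had 72, 71 and 71 reads in soy and 19, 12 and 11 in regular libraries, or 6.68 ± 0.712 and 1.61 ± 0.355 CPM (SD, n = 3 each). The log2 fold change was 2.05 ± 0.70 (SE), with an unadjusted p of 0.0148 and an adjusted p of 0.728 by edgeR. Leaving out 1 library at a time gave 1.88 to 2.25, and over all alternative fits its adjusted p was 0.155 to 0.914. RefSeq places its hairpin on chromosome 12, between the genes that GENCODE M21 annotates.

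miR-7083-3p, at the end of an intron of Dock6, an exchange factor for small GTPases, had 18, 20 and 43 reads in soy and 58, 76 and 62 in regular libraries. Its log2 fold change was -1.57 ± 0.67 (SE; edgeR unadjusted p = 0.0418, adjusted p = 0.841). miR-7032-3p, at an intron end in Hip1r, an endocytic adaptor gene, had 0, 0 and 5 reads in soy and 26, 39 and 24 in regular libraries, with -4.28 ± 1.70 (SE; edgeR unadjusted p = 0.0304). Both were lower in all soy mice. Without soy library 3 the value of miR-7032-3p was -8.07, which is no measured fold because the remaining soy libraries had no read, and with limma on the deposited log2 values it was -2.80. Without the same library, miR-7083-3p was at -2.15. Of the 31 microRNAs at intron ends that were tested, 15 were positive and 16 negative. The diets were separated for 3 of the 31 (9.68%), beside 12.8% of all tested, and these 3 were lower in soy, beside 5.49%.

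miR-6952-5p had 11, 17 and 15 reads in soy and none in regular libraries. miR-1199-5p had 5, 7 and 11 reads in soy and none in regular libraries. Since both entered through soy libraries alone, no fold is given. miR-5113, whose sequence lies in transcripts of Tnrc6b, an Argonaute partner, had 42, 40 and 7 reads in soy and 0, 0 and 4 in regular libraries (log2 fold change 3.71 ± 1.87, SE). Without regular library 3, the only regular library with reads, the fitted value was 7.85, again no measured fold, and with limma on the deposited log2 values it was 1.58.

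miR-3074-5p is made from the strand opposite to miR-24-3p and is its reverse complement over 20 bases. It had 34, 69 and 27 reads in soy and 0, 15 and 0 in regular libraries (log2 fold change 2.97 ± 1.61, SE). Without regular library 2, the only regular library with reads, the fitted value was 8.33, likewise no measured fold, and with limma on the deposited log2 values it was 1.33. miR-24-3p had 2973, 2309 and 2413 reads in soy and 2585, 2149 and 1029 in regular libraries. Whether the counting used the strand was not given in the sources used here.

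miR-3073b lies opposite Aspg, an asparaginase gene, on chromosome 12. Its 5p arm had 0, 12 and 6 reads in soy and 102, 33 and 16 in regular libraries, and regular library 1 held most of its reads. The log2 fold change was -3.13 ± 1.34 (SE; edgeR unadjusted p = 0.0424), at -2.21 without regular library 1 and -4.12 without soy library 2. Its 3p arm had 67, 49 and 63 reads in soy and 62, 30 and 19 in regular libraries. The 3p arm therefore took 100%, 80.3% and 91.3% of the hairpin's reads in soy-fed mice and 37.8%, 47.6% and 54.3% in regular-fed mice. The reverse complement of this 5p arm, miR-3073a-3p, had 1, 0 and 7 reads in soy and 0, 18 and 7 in regular libraries.

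The exact permutation test gave p = 0.1 for the miR-3073b arm share, the smallest p that 3 mice against 3 allow, and 0.55 after adjustment over the 11 hairpins that had reads in every library. miR-3105 also reached p = 0.1, with a 3p share of 100%, 96.8% and 96.9% in soy and 94.4%, 95.3% and 95.7% in regular libraries, in which the 5p arm had 0, 12 and 8 reads against 19, 16 and 9. For the other 9 hairpins the arm shares overlapped between the diets. Among these, the 3p share of miR-1843b was 62.4% ± 2.62 in soy and 67.3% ± 8.94 in regular livers, and that of miR-1981 was 77.3% ± 7.45 and 72.4% ± 6.96 (SD, n = 3 each). The share of miR-1843b is uncertain, since its 5p reads may come from either scaRNA3 copy.

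miR-1943-5p and miR-7015-3p were picked for mention after their values were seen. With miR-3105-5p, whose reads are given above and which was also lower in all soy mice by CPM, they complete the set without overlap. miR-1943-5p had 97, 125 and 116 reads in soy and 178, 146 and 98 in regular libraries, and miR-7015-3p had 39, 29 and 7 against 56, 38 and 21. By CPM both were lower in all soy mice, with edgeR adjusted p = 0.982 each. miR-1306-5p, from the hairpin in the Dgcr8 messenger RNA, had 28, 51 and 37 reads in soy and 35, 33 and 44 in regular libraries, which overlapped.

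**Figure D5:**
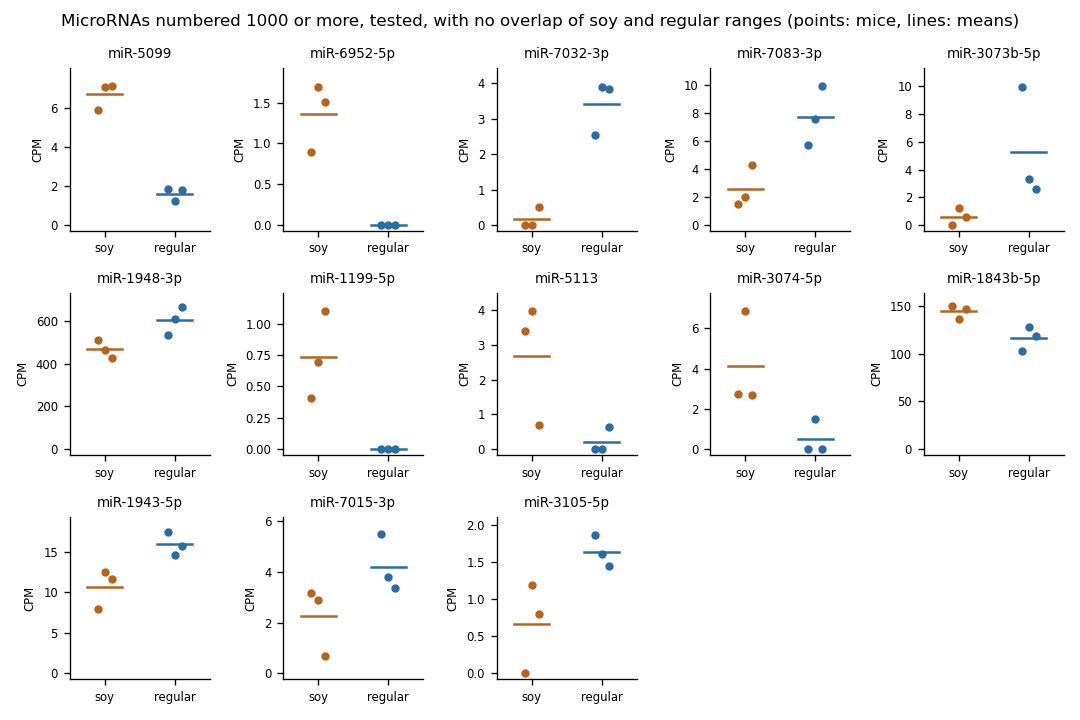
CPM of each mouse for the 13 tested late-numbered microRNAs whose ranges did not overlap between soy (left) and regular (right); lines are means of 3 mice and each panel has its own axis from 0. 6 were higher in soy and 7 lower, and most lay below 10 CPM.

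Atypical microRNAs with early numbers were set beside them. The mirtron miR-877-5p had 49, 108 and 57 reads in soy and 43, 61 and 78 in regular libraries, and the mirtron miR-702-3p had 0, 16 and 19 against 51, 10 and 67. miR-320-3p, which bypasses Drosha, had 901, 892 and 982 reads in soy and 1497, 1068 and 911 in regular libraries. By CPM it was lower in all soy mice, at 86.8 ± 12.7 against 132.9 ± 22.7 (SD, n = 3 each). Its log2 fold change was -0.62 ± 0.23 (SE; edgeR unadjusted p = 0.0224, adjusted p = 0.728). miR-451a, which bypasses Dicer, differed by 0.12 ± 0.28 (SE) on the log2 scale, and miR-484 by -0.05 ± 0.22 (SE). None of them passed the test, and the snoRNA-derived miR-664 had no reads.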

How the data were processed

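Small RNA libraries (TruSeq kit, single-end Illumina reads) were made from 6 livers, and reads were assigned to mature microRNAs by the authors. The aligner, genome build and microRNA release were not given in the sources used here. Per microRNA and library, the authors deposited whole, unnormalized read counts. A second deposited table gives log2 values after scaling by the authors, blank below 4 reads (0 mismatches with the counts), and served as an alternative.

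Libraries were grouped by diet, 3 each. Counts were tested with edgeR 4.0.16 (R 4.3.3; TMM scaling, quasi-likelihood test, at least 4 reads in at least 3 libraries, Benjamini-Hochberg at 0.05 over 437 microRNAs). CPM levels use TMM-scaled library sizes, and the limits for a count of 0 use raw totals. DESeq2 1.42.0, limma-voom (limma 3.58.1), other filters and scalings, a replicate block and leaving out each library were alternatives. For arm shares, exact permutation tests over 20 assignments were run, two-sided. Steps were tested on simulated data. Sequences and positions of microRNAs came from RefSeq (GRCm38.p6), and genes, exons and introns from GENCODE M21. An arm lay at an intron end when within 2 bases.

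The microRNAs named were the 10 most abundant, those with an unadjusted p under 0.05, up to 10 with separate ranges by p, those with both arms tested, those at the read limit, atypical origins, miR-5099, and up to 5 with over 50% of reads in 1 library. The microRNAs and lists were chosen with earlier results of these data known. Further microRNAs were picked for mention by their host gene, sequence or values. 0 sample columns were left unused.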

Additional observations from a re-analysis of the deposited data

How the results depend on the processing

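The count of late-numbered microRNAs called was 0 under each alternative run. Over the whole table the count was 0 in the edgeR test, 2 with DESeq2, 8 with no filter on low counts and 5 with the replicate number as a block. The deviations of same-numbered libraries correlated at 0.13, -0.08 and 0.04 for pairs 1 to 3, within the -0.19 to 0.20 of unlike numbers. With 3 libraries per diet this check cannot decide whether the mice were paired. No late-numbered microRNA was called with the replicate block. Without miR-1948-3p the share of reads was 0.162% in soy and 0.174% in regular libraries, and with 1 library left out at a time it was 0.200% to 0.215% and 0.229% to 0.241%. The microRNAs with separate ranges numbered 11 to 14 over the other filters and scalings. Of 551 alternative log2 fold changes of 40 named microRNAs, 518 kept their direction and 33 did not, all with adjusted p of 0.155 or more.

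Reversals were mostly of values near 0, and the cause was not tested. With library totals alone, miR-1843a-5p was at -0.050 and miR-1981-3p at -0.0084. With limma on the deposited log2 values, miR-1843a-5p was at -0.021, miR-1981-3p at -0.016, miR-6516-3p at 0.50 and miR-6952-3p at -0.42. With no filter, miR-1198-5p was at 0.042, miR-1839-3p at 0.020 and miR-3105-3p at 0.068, the last at 0.018 under a filter of 10 reads in 3 libraries. miR-6964-3p was at 0.95 with limma-voom and at 1.21 with the replicate block. With 1 library left out, the ranges that crossed 0 were -0.061 to 0.17 for miR-1843a-5p, -0.28 to 0.26 for miR-1843b-3p, -0.40 to 0.052 for miR-1948-5p, -0.070 to 0.18 for miR-1981-3p, -0.19 to 0.11 for miR-1198-5p, -0.67 to 0.093 for miR-1981-5p, -0.38 to 1.24 for miR-3061-3p, -6.47 to 0.43 for miR-6516-3p, -0.65 to 0.18 for miR-1839-3p, -0.13 to 0.13 for miR-3105-3p, -0.61 to 0.15 for miR-1306-5p, -7.16 to 0.81 for miR-7084-3p and -0.88 to 6.27 for miR-6964-3p.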
